A study of Mus musculus with 4 samples.

Results

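The genes described here encode 10 cytokines that start, carry or restrain inflammation: Tnf, the interleukin 1 family genes Il1a, Il1b, Il1rn, Il18 and Il33, the interleukin 6 family genes Il6, Osm and Lif, and the anti-inflammatory Il10. They were taken by gene symbol from a table of 18781 genes, and all 10 were found and passed the expression filter. The libraries came from purified mature adipocytes of C57BL/6 mice at postnatal day 30, with 2 from the fat of the dorsal skin (dermal) and 2 from the inguinal fat pad (inguinal). The labels give no genotype, treatment, sex or pooling for either depot, so strain, age and preparation are all that the groups are said to share. No label says whether replicates are separate animals, and p-values therefore measure only the spread among the 4 libraries, which may be technical. Adipocytes were freed with collagenase IV and dispase II and collected by floating in a centrifuge.

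Cytokines are secreted proteins that act through receptors on nearby cells. TNF and the IL1 agonists switch on NF-kB, a transcription factor that in turn induces many inflammatory genes, whereas IL1RN occupies the IL1 receptor without signalling. IL6, OSM and LIF act through receptors that share the gp130 chain and signal through JAK kinases and STAT3, and IL10 dampens cytokine production by macrophages. In fat, macrophages are a well-known source of TNF, IL1B and IL10, while IL6 is also made by adipocytes, stromal cells and endothelial cells, and IL33 by stromal and endothelial cells.

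The depots differed in which cytokine transcripts they carried. Dermal libraries had higher Tnf, Il1a, Il1b, Il1rn, Il10 and Osm, by ratios between 3.77 and 12.4. Inguinal libraries had higher Il6, by a ratio of 7.12, and higher Il33, by 3.50. Of the 10 genes, 6 were higher in dermal libraries, where 7.56% of all 12797 tested genes were, and 2 were higher in inguinal libraries, where 8.8% were. Lif and Il18 did not pass (limma on log2(CPM + 0.5), two-sided, Benjamini-Hochberg adjusted p under 0.05 over all tested genes, which called 16.4% of them in either direction). Values of the depots did not overlap for 9 of the 10 genes, against 61.8% of all tested genes. The median log2 fold change, dermal over inguinal, was 1.86 for the cytokines and 0.02 for all tested genes. In these bulk samples, fewer cells of a type and less RNA per cell cannot be told apart.

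The stretches of 250 bases before the transcription start are shown for Il6 and Tnf, the cytokine genes with the highest level per length in inguinal and in dermal libraries, and for the neighbouring genes Il1a and Il1b, which were both higher in dermal libraries. They come from RefSeq on GRCm38.p6, read 5′ to 3′ on the gene's own strand, and capitals mark every match to a searched motif.
Il6, chr5:30012864-30013113, plus strand: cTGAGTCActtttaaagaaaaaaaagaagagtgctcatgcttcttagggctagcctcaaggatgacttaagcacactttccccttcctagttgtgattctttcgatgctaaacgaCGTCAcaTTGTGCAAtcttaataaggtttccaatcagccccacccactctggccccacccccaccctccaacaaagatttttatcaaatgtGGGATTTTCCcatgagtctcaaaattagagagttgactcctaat
Tnf, chr17:35202008-35202257, minus strand: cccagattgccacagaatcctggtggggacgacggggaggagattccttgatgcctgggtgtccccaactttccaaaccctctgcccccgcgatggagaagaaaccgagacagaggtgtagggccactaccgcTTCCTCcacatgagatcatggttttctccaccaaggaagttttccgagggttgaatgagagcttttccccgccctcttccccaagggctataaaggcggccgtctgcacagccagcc
Il1a, chr2:129309973-129310222, minus strand: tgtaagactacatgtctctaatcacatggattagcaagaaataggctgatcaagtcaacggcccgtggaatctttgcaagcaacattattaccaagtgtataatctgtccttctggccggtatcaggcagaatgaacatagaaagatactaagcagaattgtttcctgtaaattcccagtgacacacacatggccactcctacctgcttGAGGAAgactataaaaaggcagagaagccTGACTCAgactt
Il1b, chr2:129371140-129371389, minus strand: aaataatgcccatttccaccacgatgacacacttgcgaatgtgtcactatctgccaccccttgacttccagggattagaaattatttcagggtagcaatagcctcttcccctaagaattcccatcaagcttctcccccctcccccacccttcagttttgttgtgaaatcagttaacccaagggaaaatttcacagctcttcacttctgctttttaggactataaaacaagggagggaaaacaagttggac
The motifs searched on both strands were the NF-kB consensus, the AP-1 site TGANTCA, the C/EBP site TTNNGCAA, the CRE core TGACG and the PU.1 core GAGGAA. Il6 held matches to 4 of them. The NF-kB match began 44 bases, the C/EBP match 128, the CRE core 135 and the AP-1 match 249 bases before the start, and none overlapped another. Tnf held a PU.1 core at 117 bases, Il1a an AP-1 site at 12 bases and a PU.1 core at 41 bases, and no match was found in the Il1b window. Among 32851 windows of the same length, 7.25% held the NF-kB consensus, 6.75% the AP-1 site, 9.56% the C/EBP site, 17.8% the CRE core and 23.3% the PU.1 core. Across the 11 starts listed for 8 of the cytokines, 2, 4, 2, 1 and 2 windows held these motifs in the same order. No entry was matched for Il10 and Osm. A match describes letters and does not show binding.

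Levels are given as CPM (reads of a gene scaled by the authors to library size), either per library or as the mean ± SD of n = 2 libraries per depot. Ratios are of pooled normalized reads with an exact 95% counting interval, which covers counting error only. A positive log2 fold change means higher in dermal libraries, and since it is taken on log2(CPM + 0.5) it understates the change of low genes.

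**Figure D1:**
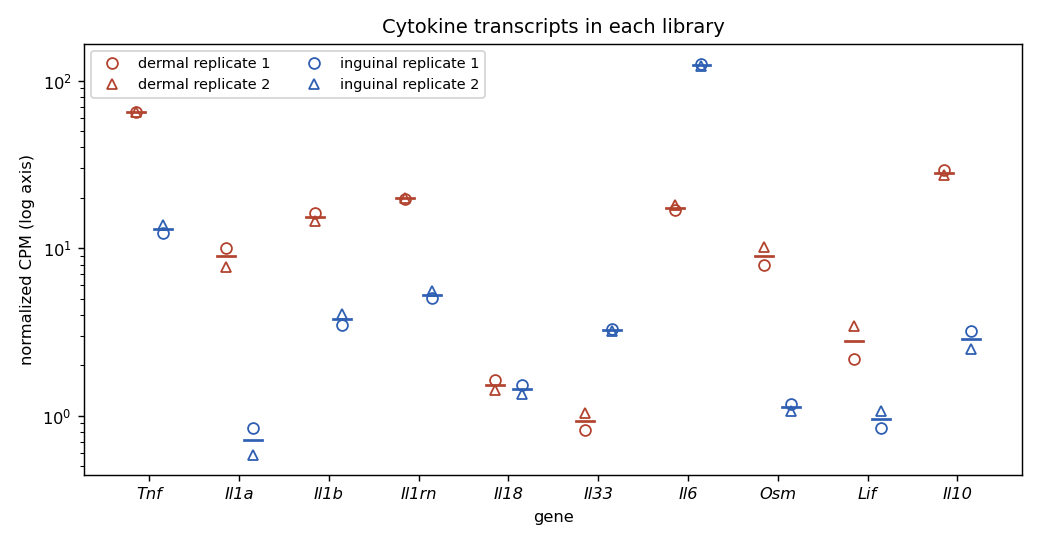
Normalized CPM (log axis) of the 10 cytokine genes in each library, with red for dermal, blue for inguinal, circles for replicate 1, triangles for replicate 2 and bars for the depot mean. Il6 and Il33 lie higher in both inguinal libraries, Il18 overlaps between depots, and the other 7 genes lie higher in both dermal libraries, although the difference of Lif did not pass the test.

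Tnf encodes tumour necrosis factor, an activator of NF-kB and of cell death pathways. It lies on chromosome 17, 35199381 to 35202007 (GRCm38). Its level was 64.9 and 64.8 CPM (dermal) against 12.3 and 13.9 CPM (inguinal). Both dermal libraries stood far above both inguinal ones, with hardly any spread between the dermal replicates. The ratio was 4.97 (4.38 to 5.66), and the log2 fold change was 2.27 (SE 0.14, adjusted p = 0.00140). The related cytokine genes Lta and Ltb lie 1.16 and 3.06 kb from Tnf. They were listed at no more than 0.0969 and 0.388 CPM in any library.

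Il1a and Il1b encode the agonists of the IL1 receptor. They lie 54.6 kb apart on chromosome 2, Il1a at 129299610 to 129309972 and Il1b at 129364570 to 129371139. Il1a stood at 10.1 and 7.78 CPM (dermal) against 0.844 and 0.582 CPM (inguinal). In the inguinal libraries that was 16 reads in all, against 193 in the dermal ones. Its ratio of 12.4 (7.45 to 22.2) was the highest of the 10 genes and had the widest counting interval among the 6 dermal calls (log2 fold change 2.96, SE 0.28, adjusted p = 0.00262). Il1b measured 16.2 and 14.5 CPM (dermal) against 3.46 and 4.07 CPM (inguinal). The groups were clearly apart, with a ratio of 4.10 (3.22 to 5.29) and a log2 fold change of 1.90 (SE 0.20, adjusted p = 0.00345). Annotated transcripts on the opposite strand overlap both genes. Gm14023, which overlaps Il1a, had at most 0.474 CPM in any library, and Il1bos, which overlaps Il1b, at most 0.182 CPM.

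Il1rn encodes the secreted and intracellular forms of the IL1 receptor antagonist. It lies on chromosome 2, 24336853 to 24351494. The antagonist moved in the direction of the agonists, at 19.8 and 20.02 CPM (dermal) against 5.07 and 5.53 CPM (inguinal). Its ratio was 3.77 (3.06 to 4.66) and its log2 fold change 1.82 (SE 0.18, adjusted p = 0.00289).

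Il18 and Il33 encode other members of the IL1 family, IL18 being made as a precursor that caspase 1 cleaves and IL33 being held in the nucleus and released from damaged cells. Il18 (chromosome 9, 50554827 to 50581840) had 18 and 15 reads in dermal libraries and 18 and 14 in inguinal libraries, or 1.64, 1.42, 1.52 and 1.36 CPM. The groups overlapped, and the ratio of 1.06 had an interval of 0.633 to 1.78 (log2 fold change 0.07, SE 0.29, adjusted p = 0.900). Those bounds cover counting error only. At this depth a difference within them could have been missed, as could a larger one. Il18 also overlaps Bco2 on the opposite strand, which measured 0.873 to 1.69 CPM. Il33 (chromosome 19, 29925114 to 29960718) had 9 and 11 reads in dermal and 39 and 33 in inguinal libraries, or 0.819 and 1.04 CPM against 3.29 and 3.20 CPM. Both inguinal libraries were higher, with a ratio of 3.50 (2.11 to 6.06), a log2 fold change of -1.39 (SE 0.28) and an adjusted p of 0.0219 by limma. That call ended when dermal replicate 1 was left out (-1.28, adjusted p = 0.0969), when dermal replicate 2 was left out (-1.51, with 0.0583) and with DESeq2 (-1.82, with 0.0513), while the direction held.

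Il6 encodes interleukin 6, which drives the acute phase response and in fat also acts on lipolysis. It lies on chromosome 5, 30013114 to 30019981. Its level was 16.9 and 18.0 CPM (dermal) against 126.7 and 121.9 CPM (inguinal), or 17.5 ± 0.774 against 124 ± 3.40 CPM. The replicates of each depot differed little, and the depots were 7.12-fold apart (6.39 to 7.96). The log2 fold change was -2.80 (SE 0.13, adjusted p = 0.000664), and 27 of all tested genes had a larger difference towards the inguinal libraries.

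Osm and Lif encode the gp130 cytokines oncostatin M, made mainly by myeloid and T cells, and leukaemia inhibitory factor. They are neighbours on chromosome 11, 16.5 kb apart, Osm at 4236420 to 4241026 and Lif at 4257557 to 4272514. Osm was at 7.92 and 10.2 CPM (dermal) against 1.18 and 1.066 CPM (inguinal). Its depots did not overlap, with a ratio of 7.99 (5.25 to 12.6) and a log2 fold change of 2.54 (SE 0.25, adjusted p = 0.00289). Lif had 24 and 36 reads in dermal and 10 and 11 reads in inguinal libraries, or 2.18 and 3.42 CPM against 0.844 and 1.066 CPM. The dermal values were both higher but spread widely, and the difference did not pass (ratio 2.94, 1.76 to 5.09, log2 fold change 1.16, SE 0.32, adjusted p = 0.0567). It passed with no intensity trend in limma (adjusted p = 0.0380) and with quantile normalization (adjusted p = 0.0481). Il6 and Osm therefore differed in opposite directions within the gp130 cytokines.

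Il10 encodes interleukin 10 and lies on chromosome 1, 131019845 to 131024974. It stood at 29.1 and 27.4 CPM (dermal) against 3.21 and 2.52 CPM (inguinal). The log2 fold change of 3.10 (SE 0.20, adjusted p = 0.00140) was the largest of the 10 genes on that scale, and the ratio was 9.79 (7.56 to 12.9). The anti-inflammatory genes Il10 and Il1rn were thus higher in the same depot as Tnf, Il1a and Il1b.

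**Figure D2:**
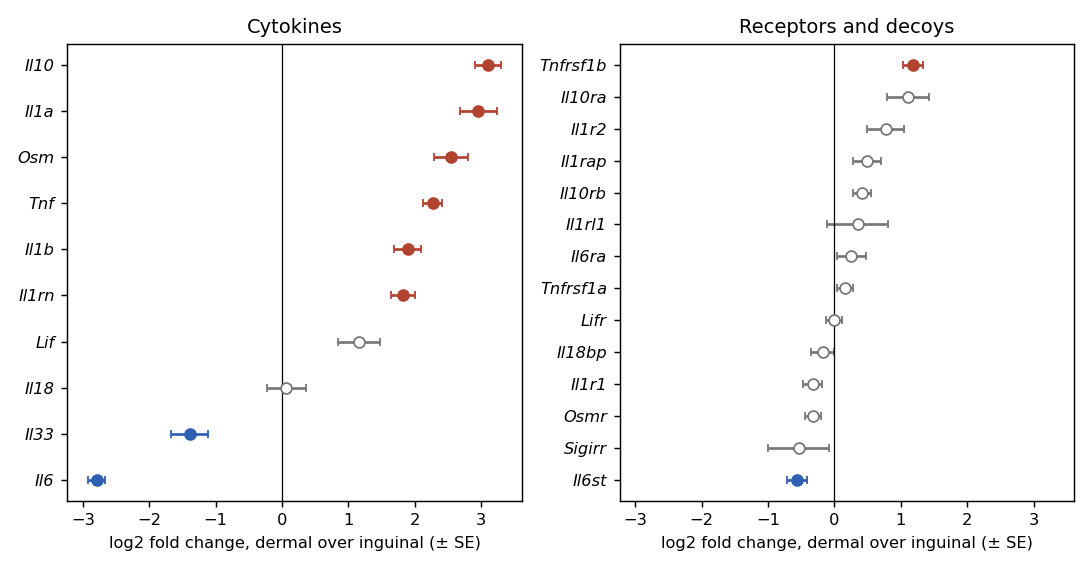
Log2 fold change, dermal over inguinal, with its SE for the 10 cytokines (left) and the 14 tested receptors and decoys (right), where filled red and blue points passed as higher in dermal and inguinal libraries and open points did not pass. The cytokines span -2.80 to 3.10, and the receptors lie between -0.57 and 1.18.

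Ratios of reads between a pair of these genes within a library do not depend on library scaling, and since gene length cancels between libraries, only their change is read here. Reads of Il6 per read of Tnf were 0.261 and 0.278 in dermal libraries and 10.3 and 8.79 in inguinal libraries. The counting intervals of the depots were far apart, 0.221 to 0.327 over the dermal and 7.39 to 12.3 over the inguinal libraries. Il10 per Tnf was 0.449 and 0.423 in dermal and 0.260 and 0.182 in inguinal libraries. The highest inguinal bound was 0.374 and the lowest dermal bound 0.367, so the intervals overlapped narrowly. Il1a per Il1b was 0.624 and 0.536 in dermal and 0.244 and 0.143 in inguinal libraries, where the intervals overlapped between some libraries (0.405 to 0.705 in dermal replicate 2, 0.109 to 0.495 in inguinal replicate 1). Il1rn per Il1b, the antagonist against its agonist, was 1.22 and 1.38 in dermal and 1.46 and 1.36 in inguinal libraries, with intervals that overlapped among all 4 libraries.

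**Figure D3:**
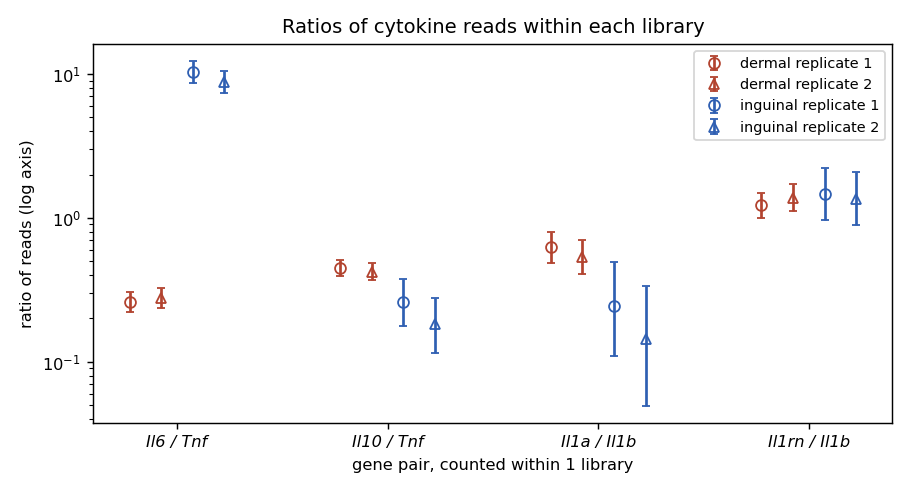
Ratio of reads (log axis) for 4 gene pairs within each library, with exact 95% counting intervals, red for dermal and blue for inguinal. Il6 over Tnf lies near 0.261 to 0.278 in dermal and at 8.79 to 10.3 in inguinal libraries, whereas Il1rn over Il1b lies between 1.22 and 1.46 in all 4.

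To order the genes by level, CPM was divided by the length of all annotated exons in kilobases. The order depends on this length. By CPM alone, dermal Il1rn (19.9 CPM) lay above Il6 (17.5 CPM) and Il1b (15.4 CPM). In dermal libraries Tnf led at 39.6 ± 0.0458 CPM per kb, followed by Il10 at 21.6 ± 0.924, Il1b at 8.05 ± 0.626 and Il6 at 7.20 ± 0.319 CPM per kb. Il1a, Osm and Il1rn came next at 4.53, 3.98 and 3.59 CPM per kb, with overlapping values between Il1a and Osm and between Osm and Il1rn. Il18, Lif and Il33 were lowest, at 1.48, 0.644 and 0.323 CPM per kb. In inguinal libraries Il6 led at 51.2 ± 1.399 CPM per kb, followed by Tnf at 7.99 ± 0.662 CPM per kb. Il10 and Il1b followed at 2.19 and 1.98 CPM per kb and overlapped each other. Il18 (1.395), Il33 (1.125), Il1rn (0.957), Osm (0.495), Il1a (0.361) and Lif (0.220 CPM per kb) did not overlap with their neighbours in that order. Neighbours not named as overlapping were likewise apart in the dermal order. Il6 thus ranked 4 in dermal and 1 in inguinal libraries, and Il33 ranked 10 and 6.

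Among the receptor genes, Tnfrsf1b was higher in dermal and Il6st in inguinal libraries. Of 16 receptor and decoy genes, 14 were tested, of which 1 was higher in dermal libraries, 1 was higher in inguinal libraries and 12 did not pass, with a median log2 fold change of 0.21. Over all tested genes 7.56% and 8.8% were called in these directions, so the receptor counts are near the background. Tnfrsf1b, the TNF receptor found mainly on immune and endothelial cells, was higher in dermal libraries at 54.2 ± 1.39 against 23.7 ± 3.33 CPM (log2 difference 1.18 with SE 0.15, adjusted p = 0.00575). Tnfrsf1a, the widely expressed TNF receptor, measured 131 ± 3.88 against 117 ± 3.57 CPM (adjusted p = 0.417). Il6st, which encodes gp130, was higher in inguinal libraries at 691 ± 87.4 against 464 ± 17.8 CPM (log2 difference -0.57 with SE 0.15, adjusted p = 0.0483). It was a fragile call. The adjusted p was 0.274 without dermal replicate 1, 0.212 without dermal replicate 2 and 0.0973 without inguinal replicate 2. It was 0.0537 with edgeR, 0.0807 with no filter, 0.0871 with no intensity trend, 0.128 with quantile normalization and 0.104 with columns rescaled to a common sum.

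The other chains of the gp130 receptors did not pass. Log2 fold changes were 0.26 for Il6ra, -0.33 for Osmr and -0.0017 for Lifr, all 3 above 34 CPM in every library. The sign of Lifr was positive with quantile normalization (0.14) and with columns rescaled to a common sum (0.08). Among IL1 family receptors, the signalling receptor Il1r1 (-0.33), the decoy receptor Il1r2 (0.77), the shared chain Il1rap (0.49), the IL33 receptor gene Il1rl1 (0.35) and the inhibitory receptor gene Sigirr (-0.54) did not pass. Il18bp, which encodes a secreted inhibitor of IL18, measured 10.9 and 10.2 CPM (dermal) against 11.9 and 12.02 CPM (inguinal) (adjusted p = 0.536). The IL18 receptor genes Il18r1 and Il18rap were below the filter, with at most 8 and 3 reads in any library. Of the IL10 receptor chains, Il10ra stood at 11.6 ± 2.18 against 5.35 ± 2.31 CPM (log2 fold change 1.10, adjusted p = 0.0630) and Il10rb had a log2 fold change of 0.41 (adjusted p = 0.0825). Il10ra passed with DESeq2 (adjusted p = 0.0476) and without inguinal replicate 2 (1.51, adjusted p = 0.00406).

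Genes that mature or release the IL1 and TNF precursors were mostly higher in dermal libraries where they passed. Of 15 tested, 6 passed towards the dermal and 1 towards the inguinal side, with a median log2 fold change of 0.26. Shares over all tested genes were 7.56% and 8.8%, so the inguinal count is near the background. With 1 library left out in turn the dermal count ranged from 4 to 6 and was lowest without dermal replicate 2. Nlrp3, the sensor of an inflammasome, measured 12.1 and 11.7 CPM (dermal) against 2.36 and 2.91 CPM (inguinal) (log2 fold change 1.99, SE 0.22, adjusted p = 0.00352). Casp1, the protease that cleaves the IL1B and IL18 precursors, measured 32.0 ± 0.313 against 8.75 ± 1.96 CPM (1.83, SE 0.20, adjusted p = 0.00346). Nlrc4, another inflammasome sensor (1.28), P2rx7, the ATP receptor that triggers IL1B release (1.15), Rhbdf1, a partner of the TNF sheddase ADAM17 (1.15), and the calpain gene Capn1 (0.96) also passed. The call of P2rx7 ended without dermal replicate 2 (adjusted p = 0.125), and that of Nlrc4 without dermal replicate 1 (0.120) or 2 (0.109) and with DESeq2 (0.0715). Casp4, a sensor caspase for bacterial lipopolysaccharide, was higher in inguinal libraries at 82.3 ± 4.23 against 26.2 ± 2.28 CPM (-1.64, SE 0.14, adjusted p = 0.00197). Adam17 itself (-0.17, adjusted p = 0.421) and Pycard, the inflammasome adaptor (0.97, adjusted p = 0.0668), are named beside them for their role and did not pass.

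Genes of feedback on cytokine signalling and of cytokine mRNA decay leaned to the inguinal libraries. The list also holds Nfkbiz and Atf3, so not every member ends signalling. Of 18 tested, 0 passed towards the dermal and 10 towards the inguinal side, and the median log2 fold change was -0.92. Among all tested genes the shares in these directions were 7.56% and 8.8%. The dermal count was 0 also with edgeR, with DESeq2 and at an unadjusted limma p under 0.05. The inguinal count was 6 without dermal replicate 1 and 10 to 12 without any other library. Socs3, a feedback inhibitor induced by gp130 cytokines, measured 83.3 and 121.3 CPM (dermal) against 442 and 482 CPM (inguinal) (-2.19, SE 0.19, adjusted p = 0.00223). Tnfaip3, the A20 inhibitor of NF-kB, measured 171 ± 14.5 against 437 ± 16.7 CPM (-1.35, SE 0.13, adjusted p = 0.00277). Zfp36, which encodes tristetraprolin, a protein that binds Tnf mRNA and promotes its decay, measured 454 ± 54.3 against 982 ± 54.2 CPM (-1.12, SE 0.15, adjusted p = 0.00661). Nfkbiz, a nuclear cofactor needed for Il6 induction (-1.74), the transcription factor gene Atf3 (-1.77), the NF-kB inhibitor Nfkbia (-1.08), Zc3h12a, a nuclease that cleaves Il6 mRNA (-0.91), and Tnip1, an A20 partner (-0.77), also passed. Without dermal replicate 1 the calls of Zc3h12a (adjusted p = 0.0794) and Tnip1 (0.119) ended.

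Signal transducers had 2 of 19 passing towards the dermal and 6 towards the inguinal side, with a median log2 fold change of -0.08. Of all tested genes, 7.56% and 8.8% were called in these directions, so the dermal count is near the background. Higher in inguinal libraries were the kinase genes Jak2 (-1.37), Jak1 (-0.86) and Ripk1 (-0.90), the IL1 receptor adaptor Myd88 (-1.14), Stat3 (-0.59) and Tab3 (-0.58), and higher in dermal libraries were Tab1 (0.90) and the TNF receptor adaptor Tradd (0.94). The inguinal count fell to 4 without dermal replicate 1 and to 3 without dermal replicate 2, and the dermal count to 0 without either and to 1 without inguinal replicate 1, with losses of Stat3 (adjusted p = 0.158 and 0.173), Tab3 (0.232 and 0.144), Tab1 (0.161 and 0.123) and Tradd (0.135 and 0.251) in both dermal cases. Other settings also ended calls: no intensity trend (Stat3 0.0606, Tab3 0.0664), quantile normalization (Stat3 0.0807), rescaled columns (Stat3 0.0527, Tab3 0.0772), no filter (Tab1 0.0543, Tradd 0.0883) and DESeq2 (Tab1 0.0534, Tradd 0.134). Jak1 was also lost without dermal replicate 2 (adjusted p = 0.0824), Tab3 without inguinal replicate 2 (0.0511) and Tradd without inguinal replicate 1 (0.0850).

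Among 20 genes that TNF or IL1 induce in other cells, 19 were tested, 3 passed towards the dermal and 10 towards the inguinal side, with a median log2 fold change of -0.81. In these directions 7.56% and 8.8% of all tested genes were called. With libraries left out in turn the counts ranged from 1 to 3 and from 8 to 10, and the dermal count was 1 without dermal replicate 1 and 2 without dermal replicate 2. The genes higher in inguinal libraries included the acute phase gene Saa3 (-2.03), the neutrophil chemokine gene Cxcl1 (-2.01), the endothelial adhesion genes Sele (-2.04), Vcam1 (-2.07) and Icam1 (-2.07), the apoptosis inhibitor gene Birc3 (-1.39) and the protease gene Mmp3 (-1.61). Higher in dermal libraries were Cxcl2, a related chemokine gene (1.06), and, named after their values were seen, the acute phase gene Hp (1.46) and the protease gene Mmp9 (0.98). Of the 13 genes that passed, 10 thus lay on the side opposite to Tnf, Il1a and Il1b. The summed level of the list went the other way, at 8289 and 5916 CPM (dermal) against 4621 and 3635 CPM (inguinal). The list as a whole therefore has no single direction. All 10 endothelial markers described below were also higher in inguinal libraries, with a median log2 fold change of -1.97. What accounts for the levels of Sele, Vcam1 and Icam1 was not tested.

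**Figure D4:**
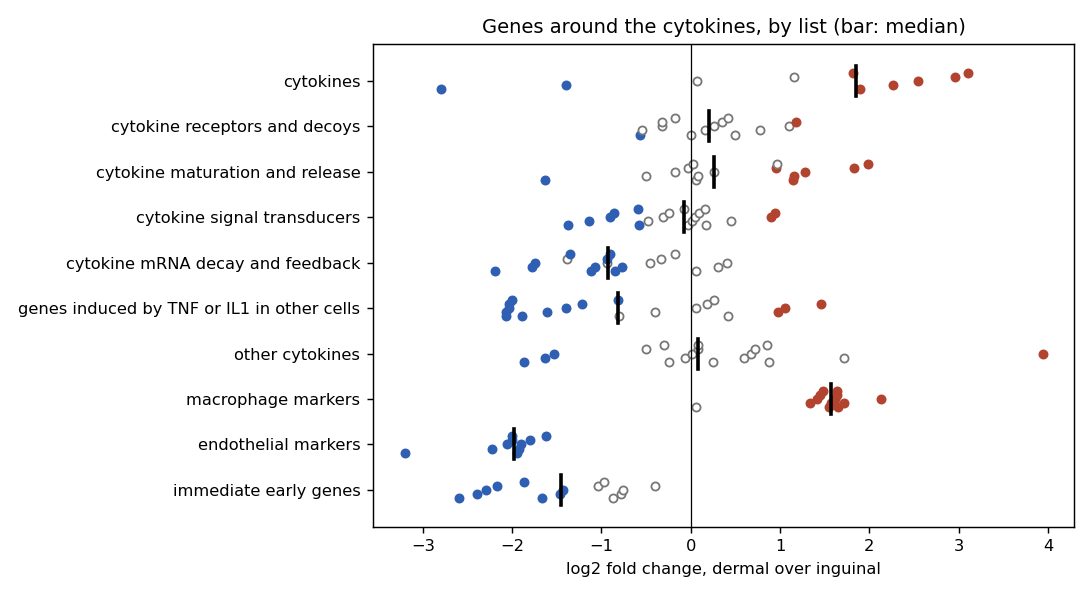
Log2 fold change, dermal over inguinal, of each tested gene by list, with black bars for the list median, red and blue for genes that passed as higher in dermal and inguinal libraries, and open circles for genes that did not pass. The cytokines have a median of 1.86 and macrophage markers of 1.57, while feedback genes (-0.92), immediate early genes (-1.45) and endothelial markers (-1.97) lie on the inguinal side.

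Some lists of cell type markers also differed between the depots, while others had few calls. Beside the counts that follow, 7.56% of all tested genes were called higher in dermal and 8.8% in inguinal libraries. Adipocyte markers summed to between 40639 and 45203 CPM in all 4 libraries, with 2 of 12 higher in dermal and 0 in inguinal libraries by limma. The dermal count was 4 at an unadjusted p under 0.05, 4 with DESeq2 and with rescaled columns, 2 with edgeR and 1 without dermal replicate 2, and the inguinal count was 0 at an unadjusted p under 0.05, 0 with edgeR and 1 with DESeq2. Of 14 macrophage markers found in the table, 13 were tested and 12 were higher in dermal libraries, and their summed level was 1826 and 1744 CPM (dermal) against 641 and 594 CPM (inguinal), a ratio of 2.89. All 10 endothelial markers were higher in inguinal libraries, at 403 and 459 against 1461 and 2278 CPM, and 8 of 14 immediate early genes, which tissue digestion can induce, were higher there, at 1372 and 2192 against 4389 and 5045 CPM. The count of immediate early genes was 13 without dermal replicate 2, 12 without inguinal replicate 1 and 11 with DESeq2. Mast cell markers summed to 72.5 and 220 CPM (dermal) against 44.6 and 53.0 CPM (inguinal), with 3 of 6 tested higher in dermal and 1 in inguinal libraries. These counts were 5 and 0 without dermal replicate 1, and 1 and 0 with no intensity trend. Keratinocyte and hair follicle markers summed to 120 and 57.1 against 25.1 and 17.4 CPM, with 6 of 7 tested higher in dermal libraries, and 4 without dermal replicate 1.

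Lymphocyte and neutrophil transcripts were scarce. For the counts in this paragraph the shares over all tested genes were again 7.56% (dermal) and 8.8% (inguinal). Of 2 lymphocyte markers tested, 1, Cd4, was higher in dermal libraries and 0 in inguinal, though Cd4 was not called with DESeq2. Its log2 fold change was 1.18 to 1.61 with libraries left out. Lymphocyte markers summed to 4.31 to 6.93 CPM in any library, with Cd3e, Cd3d, Nkg7, Klrb1c and Ncr1 at 0 reads in dermal replicate 1. Of these, Nkg7, Klrb1c and Ncr1 were also at 0 in dermal replicate 2, which allows up to 0.285 CPM. Neutrophil markers summed to 5.91 to 12.1 CPM, with the granule gene Mpo at 0 reads in 3 libraries. Of 4 neutrophil markers tested, 1, Csf3r, was higher in dermal libraries and 0 in inguinal. The log2 fold change of Csf3r was 1.52 to 2.09 with libraries left out. The mesothelial markers Msln and Wt1 had at most 1 read in any library. Lrrn4, the only mesothelial marker tested, did not pass (log2 fold change -0.66), but passed as inguinal with no intensity trend and with a replicate block. Fibroblast markers summed to 6628 and 14277 CPM (dermal) against 4078 and 6839 CPM (inguinal), higher in replicate 2 of both depots, with 2 of 12 higher in dermal libraries and 0 in inguinal by limma (3 at an unadjusted p under 0.05, 0 with edgeR and 1 with DESeq2). The dermal count of fibroblast markers was 4 without dermal replicate 1 or inguinal replicate 2, and the inguinal count was 3 without inguinal replicate 1 and 1 without dermal replicate 2. Pericyte and smooth muscle markers had 7 of 8 higher in inguinal libraries and 1, Cspg4, higher in dermal libraries (0.94). The inguinal count was 4 without dermal replicate 1, where that of dermal calls was 0, and 5 without dermal replicate 2, with no filter, with no intensity trend or with rescaled columns. Dendritic cell markers had 1 of 4 in each direction, with 2 dermal calls without dermal replicate 2 or inguinal replicate 1 and 0 inguinal calls without dermal replicate 1.

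Set against the macrophage markers, the cytokines did not follow a common ratio. Per 1000 CPM of summed macrophage markers, Tnf measured 35.5 and 37.1 CPM (dermal) against 19.2 and 23.3 CPM (inguinal), a ratio of 1.71 where the ratio of Tnf itself was 4.97. On the same scale the dermal over inguinal ratio was 1.403 for Il1b, 1.30 for Il1rn, 1.01 for Lif, 2.79 for Osm, 3.42 for Il10 and 4.35 for Il1a. Il1a and Il10 thus had the largest dermal over inguinal ratios on this scale. No counting interval was computed for these ratios, and Il1a rests on 16 and Il10 on 64 inguinal reads. Lif did not differ beyond its spread (1.20 and 1.96 against 1.32 and 1.80 CPM). Il18, whose own levels overlapped, was at 0.897 and 0.816 against 2.37 and 2.28 CPM on this scale, a dermal over inguinal ratio of 0.368. Il6 and Il33 per 1000 CPM of macrophage markers were 20.5-fold and 10.05-fold higher in inguinal libraries, further apart than the genes themselves. Il6 per 1000 CPM of endothelial markers was 42.1 and 39.3 CPM (dermal) against 86.7 and 53.5 CPM (inguinal), and Il33 was 2.04 and 2.28 against 2.26 and 1.404 CPM, where the depots overlapped. Whether macrophages, endothelial cells, mast cells, skin cells or the digestion response account for any cytokine difference was not tested.

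For each cytokine that passed, the 3 tested genes nearest in pattern were found by Euclidean distance between log2(CPM + 0.5) values of the 4 libraries, each gene centred on its mean. With 4 libraries many genes lie close, so these are descriptions. The nearest genes were Mup17, Spi1 and Wfdc17 for Tnf (distances 0.09 to 0.23), Lrrc25, Nlrp3 and Hpse for Il1b (0.08 to 0.13), and Siglec1, Rgs7bp and Fermt3 for Il1rn (0.09 to 0.13). Il1a and Il10 were each among the other's nearest genes (0.24) and shared Oasl1. Their remaining neighbours were Vdr for Il1a (0.20) and Rpl39l for Il10 (0.21). Thbs1, Pgf and Apold1 were nearest to Il6 (0.21 to 0.24), Uap1, Birc3 and Tnfaip3 to Il33 (0.02 to 0.06), and Hoxd3, Igdcc4 and Slc2a13 to Osm (0.27 to 0.31). Mup17 belongs to a family of near-identical genes, so its reads are uncertain.

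The libraries held 10127125 to 12730013 reads assigned to genes, and 3 reads corresponded to 0.253 to 0.291 CPM. Libraries of a depot correlated at 0.987 (dermal) and 0.982 (inguinal) across tested genes, which are not independent replicates. In all, 968 genes passed towards the dermal and 1126 towards the inguinal side. Without dermal replicate 1 these counts were 455 and 568, and without dermal replicate 2 they were 339 and 698, while the 6 dermal cytokine calls and that of Il6 held in both cases.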

How the data were processed

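Gene-level values of 4 RNA-seq libraries of floating mature adipocytes, 2 dermal and 2 inguinal, were analysed, grouped by sample title. Per the labels' protocols, DNase-treated RNA went into a stranded total RNA kit. Named in the submitters' processing notes, without roles, are TopHat2 2.0.12, featureCounts (Subread 1.4.6), Picard 1.127, edgeR, FastQC, bcl2fastq and the build mm10. The sources used here do not say whether counting used strand.

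The deposited signal values are CPM that the authors divided by a further factor per library. Dividing each column by its smallest step gave whole reads for 100% of values, with a tolerance of 0.001. The main test was limma 3.58.1 (R 4.3.3) with an intensity trend, applied to log2(CPM + 0.5) of genes reaching 1 CPM in at least 2 libraries, with Benjamini-Hochberg adjustment. As alternatives, the recovered reads were tested with edgeR 4.0.16, which called 2056 genes, and DESeq2 1.42.0, which called 1985, against 2094 by limma. Other alternatives changed the pseudocount, filter, trend and normalization, added a replicate block or left out each library. On simulated counts of this comparison with 12745 genes, limma recovered 68% of genes changed by 1 and 98% changed by 2 on the log2 scale, with 2.92% false calls. The simulated spread was set by hand and may be smaller than the real one.

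The 10 members and the gene lists were chosen with earlier results of these data known. Named were all members and receptors, up to 8 passing genes per other pathway list, the 2 most abundant genes per marker list, and the 3 genes nearest to each passing member, of which the text prints a part. Adam17, Pycard, Hp, Mmp9, the markers named for being at 0 or 1 reads, and overlapping or neighbouring genes were named outside the rule after their values were seen. Positions and exon lengths came from GENCODE M21 on GRCm38, the assembly called mm10 in the notes, and the authors' gene models may differ. No library was a duplicate: replicate reads differed by a chi-square of 22.1 (dermal) and 37.2 (inguinal) per gene.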

Additional observations from a re-analysis of the deposited data

How the results depend on the processing

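The calls of Tnf, Il1a, Il1b, Il1rn, Il10, Osm and Il6 held in all 14 alternatives, with Il1a ranging from 2.53 to 3.62 on the log2 scale. Il33 lost its call with DESeq2 (-1.82) and without either dermal replicate (-1.51 to -1.28), and it was not tested with a filter at 5 CPM, so the count of cytokines higher in inguinal libraries was 1 in these cases (1 to 2 with libraries left out). Lif passed with no intensity trend (1.16) and quantile normalization (1.09). The sign of Il18, which never passed, turned with quantile normalization (-0.0076) and without dermal replicate 1 (-0.010 to 0.14 with libraries left out). Signs also turned for genes not called in those settings: Lifr with quantile normalization (0.14), rescaled columns (0.081) and libraries left out (-0.056 to 0.053), Il1rl1 and Sigirr with libraries left out (-0.28 to 0.98 and -1.10 to 0.023), Cfd with quantile normalization (0.15), rescaled columns (0.047) and libraries left out (-0.36 to 0.29), and Pdpn with libraries left out (-0.0070 to 1.12).

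The replicate numbers are shared between depots, but the labels do not say what they mark. Deviations of same-numbered libraries correlated at 0.464 across genes, from 2 pairs only, so the numbers were not taken to pair the samples. With the replicate block, 2342 genes passed towards dermal and 2384 towards inguinal libraries, and Lif passed (1.16, adjusted p = 0.00601). Of 14 receptors, 5 then passed as dermal and 3 as inguinal, with Il1r1 (adjusted p = 0.0386), Il1r2 (0.0293), Il1rap (0.0325), Il10ra (0.000556), Il10rb (0.0179) and Osmr (0.0308) gained. Counts under the block were 1 dermal and 13 inguinal for feedback genes, whose dermal count was 0 in the other 13 alternatives, and in the same order 0 and 14 for immediate early genes, 5 and 1 for mast cell, 4 and 0 for adipocyte and 6 and 4 for fibroblast markers, and 4 and 3 for other cytokines. With libraries left out in turn the counts over all genes ranged from 339 to 1212 and from 568 to 1470. Depth limits Il18, Il33 and Lif, which rest on 92 or fewer reads over all 4 libraries.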

Other observations

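Of 45 other cytokine genes, 35 were in the table and 18 were tested. Of these 18, 1 was higher in dermal and 3 in inguinal libraries, with a median log2 fold change of 0.08. Over all tested genes the shares were 7.56% and 8.8%, so the dermal count is near the background. Ifnb1, which encodes interferon beta, was at 8.37 and 9.49 CPM (dermal) against 0.253 and 0 CPM (inguinal), from 192 reads against 3. The ratio was 65.9 with an exact 95% counting interval of 22.2 to 322 (limma log2 fold change 3.94, SE 0.32, adjusted p = 0.00182). Il23a, a subunit of interleukin 23, was at 0.910 and 0.949 CPM (dermal) against 4.14 and 5.33 CPM (inguinal) (-1.86, adjusted p = 0.00849). Csf3, the granulocyte growth factor G-CSF, was at 2.37 ± 0.259 against 7.75 ± 0.692 CPM (-1.53, adjusted p = 0.00928). Tnfsf10, the death ligand TRAIL, was at 4.99 ± 1.26 against 17.0 ± 6.95 CPM (-1.63, adjusted p = 0.0215), a call that ended without dermal replicate 1 (adjusted p = 0.0587). The count of other cytokines higher in dermal libraries was 3 without inguinal replicate 2 and 2 without dermal replicate 1 or without inguinal replicate 1.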
